A study of Homo sapiens with 6 samples.

Results

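The BCL2 family decides whether mitochondria release the factors that start apoptosis, and 10 of its genes were followed here: the pro-survival genes BCL2, BCL2L1 and MCL1, the effector genes BAX and BAK1, and the BH3-only genes BBC3, PMAIP1, BCL2L11, BID and BAD. Their probe sets were taken by gene symbol from the platform annotation, whatever their values, and the genes are 10 of the 18132 genes measured. The annotation gives them 46 probe sets with 1 gene each, and 0 further probe sets that they share with another gene. Expression was measured on Affymetrix arrays of biotin-labelled total RNA from HCT116, a human colorectal carcinoma cell line, cultured in RPMI-1640 with fetal bovine serum and antibiotics. The labels give 2 groups, 3 arrays of cells labelled CSF3 and 3 arrays of cells labelled Ctrl (control). CSF3 is the gene of granulocyte colony-stimulating factor, the cytokine that makes bone marrow produce neutrophils, and how these cells were given it (as protein or as a gene) is not in the labels. Separate cultures are not stated for the arrays of a group either, so the p-values cover no more than the scatter among these 6 samples, and that scatter may be technical.

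Proteins of this family meet at the outer mitochondrial membrane. The effectors BAX and BAK1 form pores that release cytochrome c, the pro-survival proteins bind and restrain them, and the BH3-only proteins, each switched on by its own kind of stress, either neutralise the pro-survival proteins or activate the effectors directly. In colorectal carcinoma cells BCL-XL, the long product of BCL2L1, and MCL1 are known as the main brakes. Many of the genes are spliced into products of different or even opposite activity, so probe sets of 1 gene can follow different transcripts.

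Upstream sequences are shown for BBC3, PMAIP1 and BCL2L11, because these were the 3 members whose brightest probe set was higher on the CSF3 arrays. They are the 250 bases before a transcription start in RefSeq on GRCh38.p14, read 5′ to 3′ along the gene's strand, at chr19:47232668-47232917 on the minus strand for BBC3, chr18:59899746-59899995 on the plus strand for PMAIP1 and chr2:111120664-111120913 on the plus strand for BCL2L11. The BBC3 start used by the table is an internal one, so most of its window lies within the annotated gene, while the other 2 windows end where the gene begins. Capitals mark an E-box (CACGTG) in BBC3, the core of a cyclic AMP response element (TGACG, here on the other strand) in PMAIP1, and a FOXO motif (TGTTTAC, here on the other strand) in BCL2L11.
BBC3: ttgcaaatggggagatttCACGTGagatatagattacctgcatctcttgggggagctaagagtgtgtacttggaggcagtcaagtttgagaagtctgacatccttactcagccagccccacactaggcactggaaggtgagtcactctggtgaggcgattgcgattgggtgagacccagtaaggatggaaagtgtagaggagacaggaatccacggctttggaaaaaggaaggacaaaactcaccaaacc
PMAIP1: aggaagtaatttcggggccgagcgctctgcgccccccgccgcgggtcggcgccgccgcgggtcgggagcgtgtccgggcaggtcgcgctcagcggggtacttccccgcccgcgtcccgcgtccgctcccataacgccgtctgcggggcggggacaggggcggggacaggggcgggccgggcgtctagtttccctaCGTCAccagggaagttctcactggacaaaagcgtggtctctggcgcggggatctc
BCL2L11: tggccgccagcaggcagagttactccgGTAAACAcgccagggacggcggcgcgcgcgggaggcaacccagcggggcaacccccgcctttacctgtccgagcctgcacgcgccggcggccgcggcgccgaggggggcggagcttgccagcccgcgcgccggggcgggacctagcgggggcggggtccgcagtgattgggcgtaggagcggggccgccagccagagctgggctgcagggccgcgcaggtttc

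Motifs were searched on both strands in 35116 such windows, and 9 of the 10 members had at least 1 window, the exception being MCL1. The consensus of NF-κB, the factor in the title of the series, was in 9.96% of all windows and in those of 0 of the 9 members. The STAT motif TTCNNNGAA (6.57% of all windows) and the full cyclic AMP response element TGACGTCA (1.65%) were also found in 0 members. Its core TGACG, which overlaps the full element, was in 21.2% of all windows and in those of BCL2, BCL2L1, BAX, PMAIP1 and BAD. The SP1 box GGGCGG, in 42.6% of all windows, was in those of 6 members: BAX, BAK1, PMAIP1, BCL2L11, BID and BAD. The FOXO motif was in 2.98% of all windows and among the members in BCL2L11, 223 bases before its start. The p53 half-site RRRCWWGYYY (R for A or G, W for A or T, Y for C or T) was in 5.57% of all windows. Among the members it was in BAK1 alone, 73 bases before its start. The E-box was in 6.34% of all windows and in those of BAX, BBC3 and BID. BID has 5 listed starts and BAD and BCL2L1 have 2 each, which gives them more windows to hold a motif. Each match is a run of letters in a window, not a measured site.

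The groups differed over the whole array, which sets the scale for the members. CSF3 itself, by its brightest probe set, was 5.97, 5.91 and 5.99 on the CSF3 arrays, against 5.13, 4.85 and 4.52 on the Ctrl arrays, and all 3 of its probe sets were higher. Arrays within a group correlated at 0.994 for CSF3 and 0.998 for Ctrl, against 0.970 to 0.974 between groups. The lower quartile of an array's values was 2.40 to 2.43 for CSF3 and 2.18 to 2.19 for Ctrl, and the upper quartile 5.37 to 5.40 for CSF3 and 5.63 for Ctrl. The median change of probe sets was 0.23 below the median level and -0.16 above it, and 0.10 over all of them, which quantile normalization brought to 0.04. The array's own controls differed as well: the 18 hybridisation controls and the 27 poly-A controls were all higher on the CSF3 arrays, by medians of 1.53 and 1.57. All 23 background probe sets also averaged higher on the CSF3 arrays, by 0.005 to 0.34, with a median of 0.07. The gap between the 3' and 5' probe sets of GAPDH was 0.679 to 0.684 on CSF3 and 0.301 to 0.313 on Ctrl arrays. That of ACTB was 1.92 to 1.96 on CSF3 and 1.32 to 1.38 on Ctrl arrays. The part of these differences in the results below was not tested. Of the epithelial markers, EPCAM averaged 3.30 on CSF3 and 3.63 on Ctrl arrays and CDH1 2.24 on CSF3 and 2.20 on Ctrl arrays, low for an epithelial line, while the keratin gene KRT18 read 7.48 on CSF3 and 7.26 on Ctrl arrays and its partner KRT8 5.06 on CSF3 and 6.37 on Ctrl arrays (a change of -1.32, limma adjusted p = 2.98e-05). Over the 8 epithelial markers the mean level was 3.42 to 3.47 on CSF3 and 3.49 to 3.58 on Ctrl arrays, with 2 higher, 2 lower and the rest not called. The 6 fibroblast markers averaged 2.78 to 2.86 on CSF3 and 2.31 to 2.33 on Ctrl arrays with 5 higher, the 6 leukocyte markers 2.95 to 3.05 on CSF3 and 2.65 to 2.73 on Ctrl arrays with 4 higher, and the 3 endothelial markers 3.70 to 3.78 on CSF3 and 3.13 to 3.22 on Ctrl arrays with 3 higher. Of all 18132 genes, 45.4% were higher and 27.1% lower by brightest probe set, and probe sets below the median level rose by a median of 0.23. The marker counts are not read as a result about cell types. The leukocyte markers ran from PTPRC (1.66 on CSF3, 1.42 on Ctrl) to CSF1R (4.05 on CSF3, 3.74 on Ctrl). Sample codes in the labels share a prefix within each group, and if it stands for a batch, batch and group cannot be told apart.

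Within the family, the BH3-only genes BBC3, PMAIP1 and BCL2L11 were higher on the CSF3 arrays, while most probe sets of MCL1, 1 of BCL2L1 and 2 of BID were lower. Also higher were 1 probe set of BCL2, 1 of MCL1 and 3 of BAK1, and also lower were 1 of BAX and 1 of BAD. Some calls in both directions were lost after quantile normalization, as given below. The signals are of bulk RNA, in which fewer cells of a kind and less RNA per cell cannot be told apart. Of the 46 probe sets, 19 were higher and 9 lower at a limma adjusted p under 0.05, and 18 did not pass, against 36.7% of all 44988 single-gene probe sets higher and 28.8% lower. The 2 groups did not overlap for 21 members' probe sets that were higher and 12 that were lower on CSF3 arrays, against 39.8% and 30.9% of all probe sets. The family's counts lie near those shares and are not read as a result about the family. Its median change was 0.16, beside 0.10 over all probe sets. After quantile normalization the family counts were again 19 higher, 9 lower and 18 not called, against 28.5% and 24.8% of all probe sets, and the family median was 0.22.

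Counts by role are given beside the shares of all single-gene probe sets. These were 36.7% higher and 28.8% lower, or 28.5% and 24.8% after quantile normalization. Of 15 pro-survival probe sets, 2 were higher and 5 lower, with a median of -0.03, or 3 higher and 7 lower after quantile normalization. Of 7 effector probe sets, 3 were higher and 1 lower, with a median of 0.15, or 4 and 1 after quantile normalization. Of 24 BH3-only probe sets, 14 were higher and 3 lower, with a median of 0.31, or 12 and 1 after quantile normalization. BCL2L11 alone supplied 14 of these 24, so the BH3-only count is mostly its own, and probe sets of 1 gene are not independent. The difference between roles was not tested, and the counts are not read as a result about the roles.

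**Figure D1:**
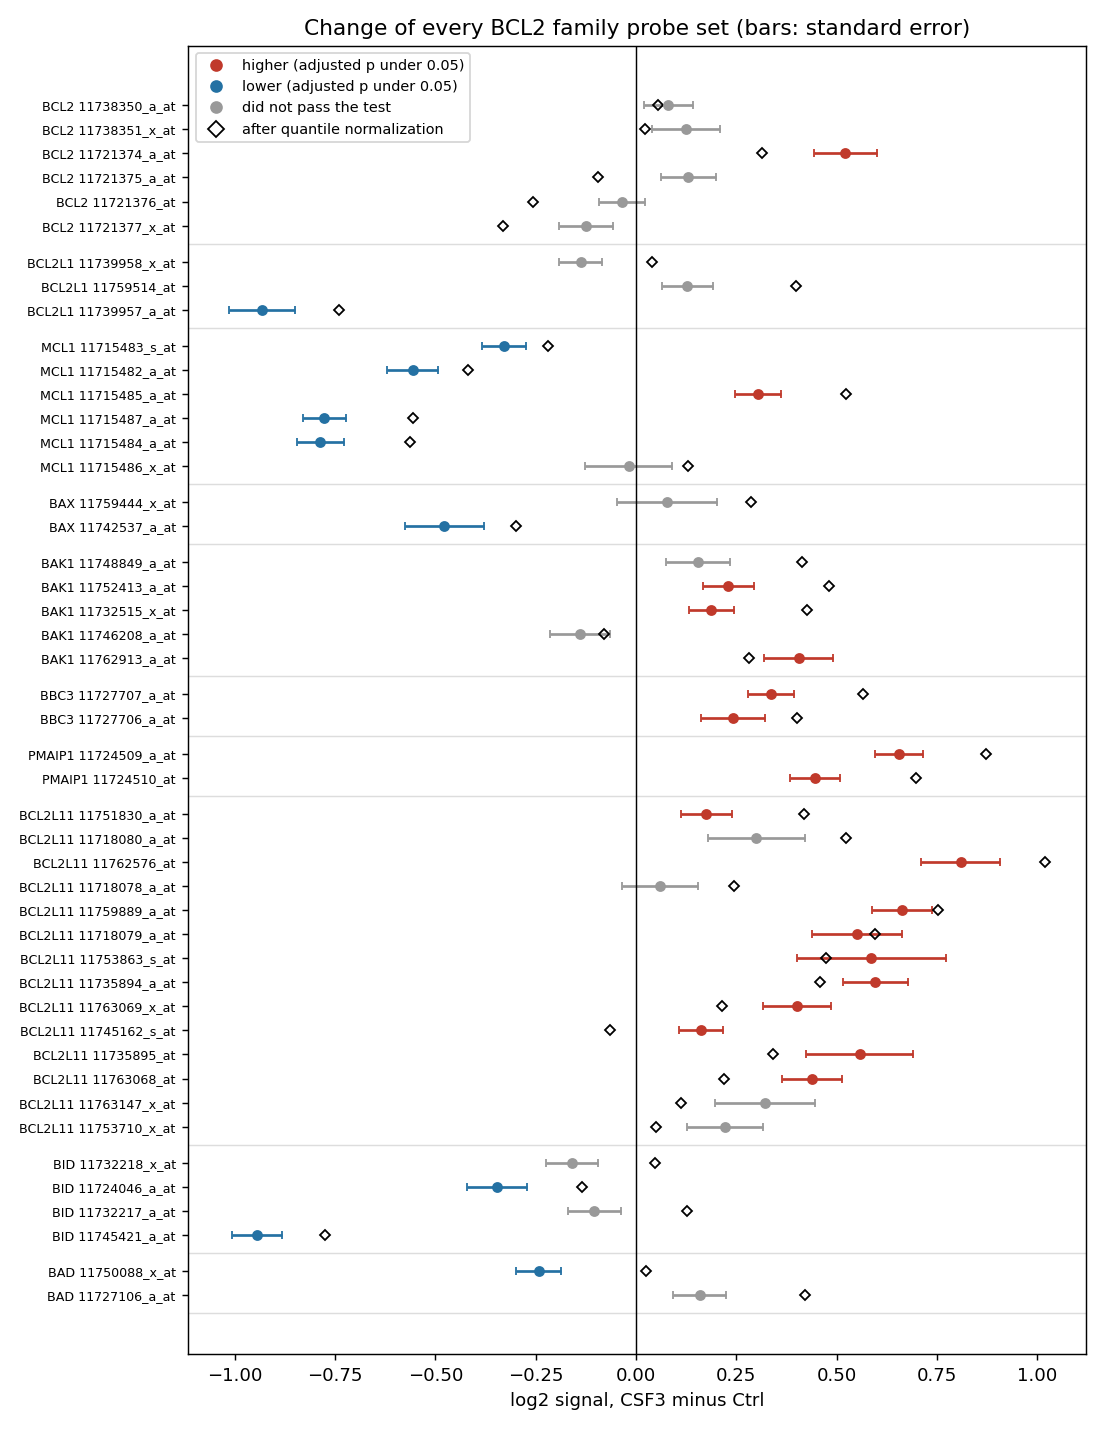
Change of each of the 46 probe sets (horizontal axis, log2 signal, CSF3 minus Ctrl, with its standard error), grouped by gene and coloured by the limma call; open diamonds are the same change after quantile normalization. PMAIP1 and BBC3 lie to the right of 0 for both probe sets each, and MCL1 has 4 probe sets to the left and 1 to the right among those called. Of the called probe sets, BAD 11750088_x_at and BCL2L11 11745162_s_at have the diamond across 0, as do some that were not called.

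The changes are set here beside those of probe sets of like level, because the median change over all probe sets ran with level. Against probe sets of like level, in 20 bins, 41 of the 46 members' probe sets lay between the 10th and the 90th percentile of change. The 4 above that band were both of PMAIP1 and 2 of BCL2L11, 11762576_at and 11759889_a_at. The PMAIP1 probe set 11724509_a_at changed by 0.66 where probe sets of its level had a median of -0.21 and a 90th percentile of 0.34. The 1 below was BCL2 11721377_x_at, a dim probe set that did not pass the test. By definition the band leaves 10% of all probe sets above it and 10% below it. The counts of 4 and 1 among 46 are therefore not read as a result about the family. The falls of MCL1, BCL2L1 and BID lay inside the band. Of the BH3-only probe sets 21 of 24 were over the median of their bin, of the effectors 5 of 7, and of the pro-survival genes 4 of 15.

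**Figure D2:**
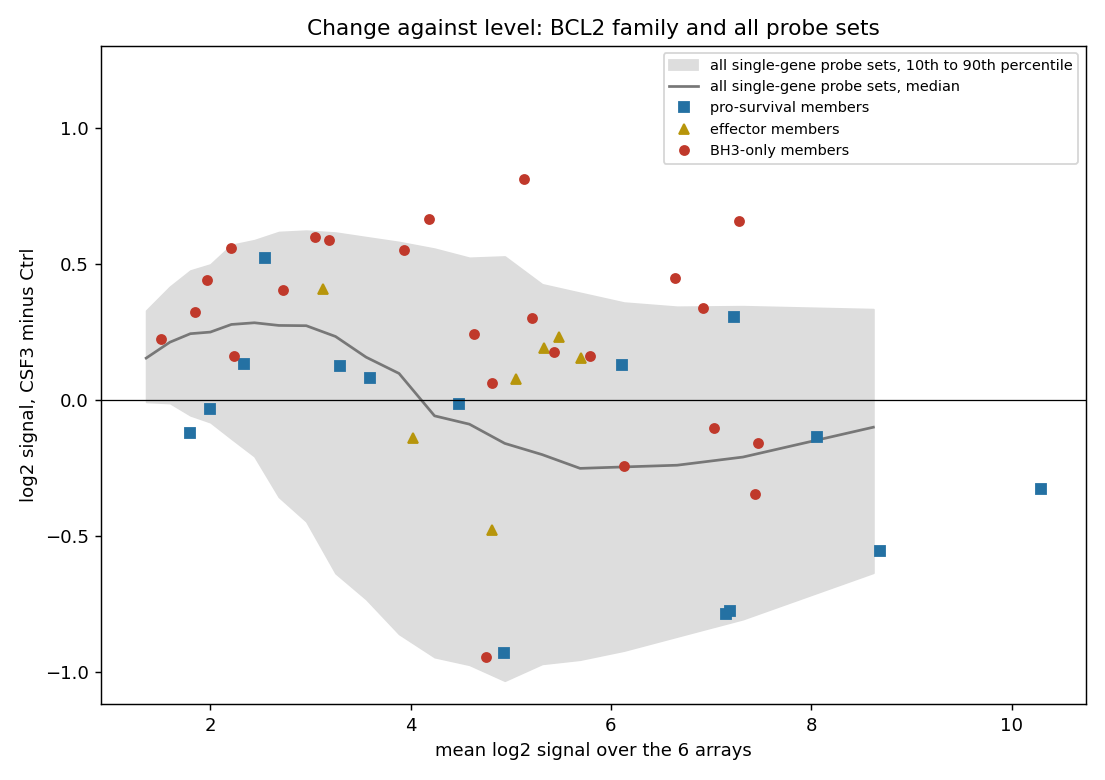
Change (vertical axis, log2 signal, CSF3 minus Ctrl) against mean log2 signal over the 6 arrays (horizontal axis) for the 46 members' probe sets, with the median (line) and 10th to 90th percentile (band) of all single-gene probe sets in 20 level bins. The line runs above 0 at low level and below 0 at high level; 4 BH3-only points lie above the band and 1 pro-survival point below it.

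MCL1 encodes a short-lived guard protein that binds BAK1 and most BH3-only proteins (chromosome 1, 150574558 to 150579610 on GRCh38.p14). Most of its probe sets were lower on the CSF3 arrays. Probe set 11715483_s_at, the brightest, read 10.17, 10.10 and 10.11 on the CSF3 arrays, against 10.46, 10.46 and 10.44 on the Ctrl arrays. The groups did not overlap, and the change was -0.33 ± 0.05 (standard error; limma adjusted p = 0.00143). Probe set 11715487_a_at read 6.83, 6.79 and 6.77 on CSF3 arrays, against 7.58, 7.58 and 7.57 on Ctrl arrays, a change of -0.78 ± 0.05 (limma adjusted p = 2.79e-05), or 0.584-fold if the deposited scale is log2. Probe set 11715484_a_at changed by -0.79 ± 0.06 and 11715482_a_at by -0.56 ± 0.06, again with every CSF3 array below every Ctrl array. All 4 falls held under every alternative that kept the probe set, with a highest adjusted p of 0.00875.

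A further MCL1 probe set went the other way. Probe set 11715485_a_at read 7.35, 7.44 and 7.36 on CSF3 arrays, against 7.07, 7.06 and 7.11 on Ctrl arrays. It rose by 0.30 ± 0.06 (limma adjusted p = 0.0025), also under every alternative. Its companion 11715486_x_at, designed from the same target record, averaged 4.47 ± 0.21 on CSF3 and 4.49 ± 0.09 on Ctrl arrays (SD, n = 3 each) and did not pass the test, with a change of -0.02 that turned to 0.13 after quantile normalization.

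BCL2L1 yields the long pro-survival product BCL-XL and, by another splice site, the short pro-death product BCL-XS (chromosome 20, 31664452 to 31723963). Probe set 11739957_a_at read 4.37, 4.44 and 4.59 on CSF3 arrays, against 5.30, 5.50 and 5.39 on Ctrl arrays. The groups lay far apart relative to their spread, and the change was -0.93 ± 0.08 (limma adjusted p = 7.03e-05), the largest fall among the pro-survival probe sets. The brightest probe set, 11739958_x_at, whose target record is the BCL-XS transcript, read 7.98, 7.99 and 8.01 on CSF3 arrays, against 8.10, 8.13 and 8.16 on Ctrl arrays. Here too the groups did not overlap, but the change of -0.14 ± 0.05 did not pass (limma adjusted p = 0.0542) and was 0.04 after quantile normalization. Probe set 11759514_at averaged 6.17 ± 0.06 on CSF3 and 6.04 ± 0.06 on Ctrl arrays (SD, n = 3 each), a difference of 0.13 that did not pass (limma adjusted p = 0.11) and that was 0.40, and past the test, after quantile normalization.

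BCL2, the founding member, first found at the translocation of follicular lymphoma (chromosome 18, 63123346 to 63320090), read low on every probe set, from 1.74 to 3.63 on CSF3 arrays and 1.86 to 3.55 on Ctrl arrays. No detection calls were used, so its level cannot be told from that of a gene that is off. Probe set 11721374_a_at read 2.70, 2.77 and 2.95 on CSF3 arrays, against 2.25, 2.27 and 2.34 on Ctrl arrays, and rose by 0.52 ± 0.08 (limma adjusted p = 0.000918). The other 5 probe sets did not pass. The pair with the BCL2 beta transcript as target record, 11738350_a_at and 11738351_x_at, had differences of 0.08 and 0.12, and the pair with the BCL2 alpha transcript, 11721376_at and 11721377_x_at, had -0.03 and -0.12. Probe set 11721376_at had the same value, 1.98, on 5 of the 6 arrays. Ties were also present in 11721377_x_at, which read 1.68, 1.68 and 1.86 on CSF3 arrays, against 1.88, 1.86 and 1.86 on Ctrl arrays. After quantile normalization, the alpha pair passed the test as lower (-0.26 and -0.33), and 11721375_a_at turned from 0.13 to -0.10 without passing.

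**Figure D3:**
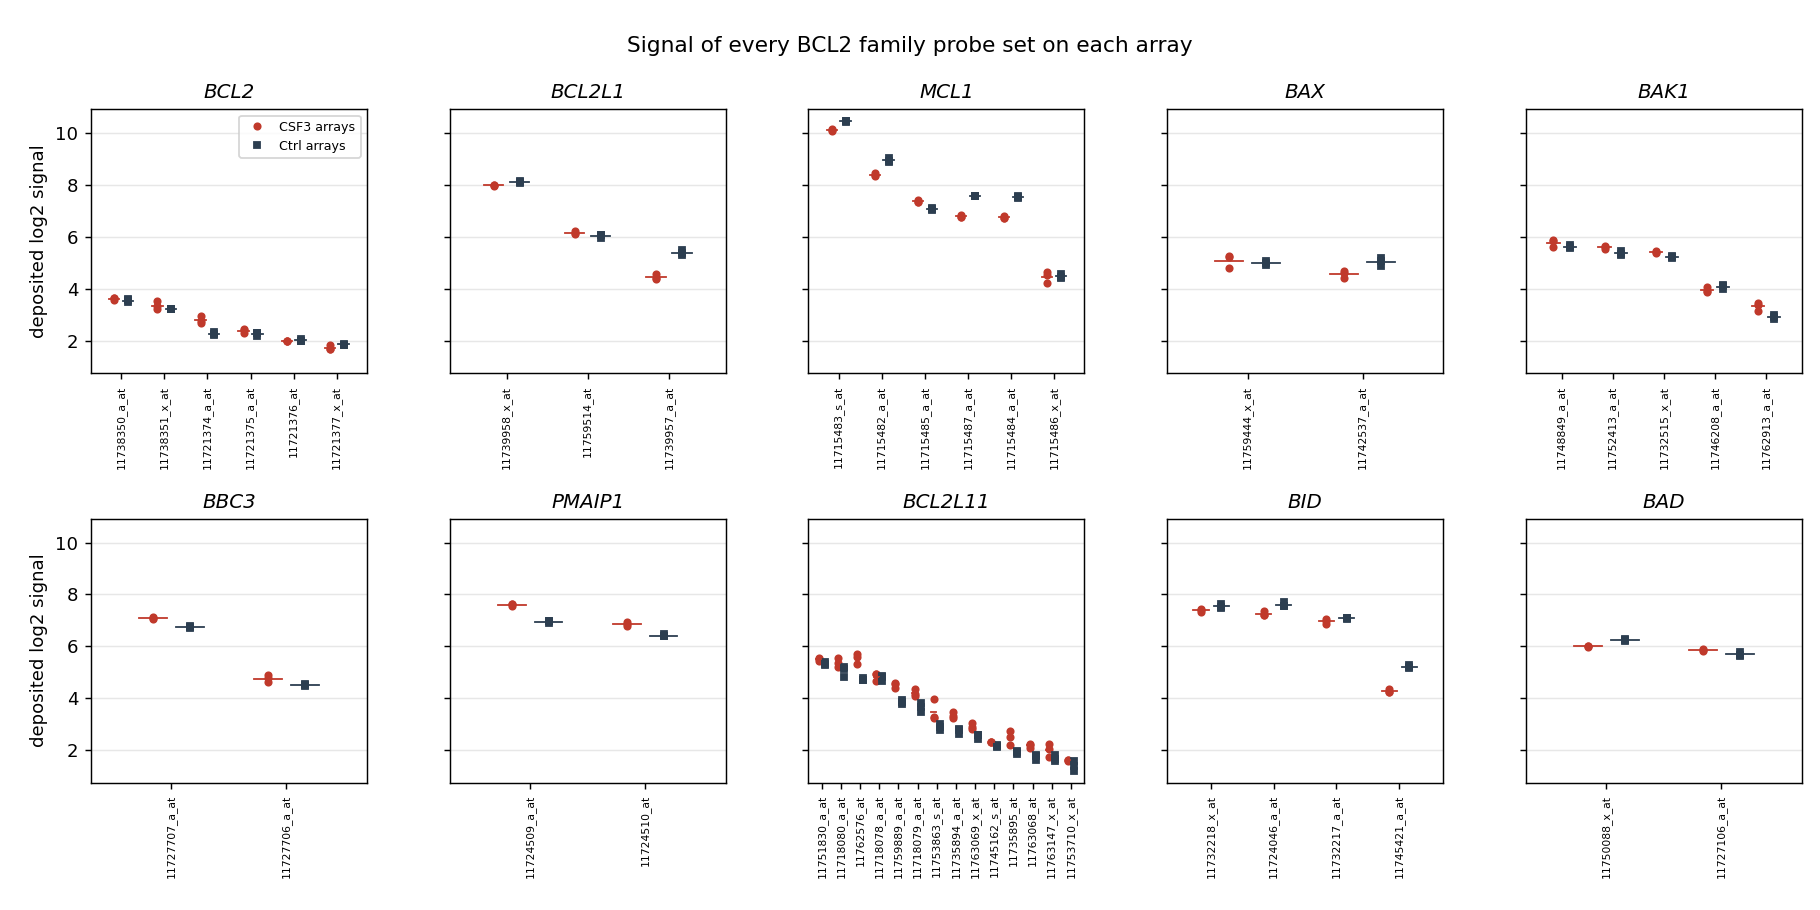
Deposited log2 signal (vertical axis) of every probe set of the 10 genes on each array, CSF3 arrays as circles and Ctrl arrays as squares, with horizontal lines at the group means and probe sets ordered by level within a gene. The first MCL1 probe set averages 10.1 on CSF3 and 10.5 on Ctrl arrays, the BCL2 points lie below 4, and both PMAIP1 probe sets have all CSF3 points above all Ctrl points.

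The effector genes gave mixed results. BAX, whose protein moves from the cytosol into the membrane when activated (chromosome 19, 48954875 to 48961798), was measured by 2 probe sets. Probe set 11742537_a_at read 4.69, 4.60 and 4.44 on CSF3 arrays, against 5.19, 4.89 and 5.08 on Ctrl arrays, and fell by 0.48 ± 0.10 on the log2 scale (limma adjusted p = 0.00393). Probe set 11759444_x_at, whose target record is the BAX beta transcript, read 5.26, 5.23 and 4.79 on CSF3 arrays, against 5.02, 5.09 and 4.94 on Ctrl arrays. The groups overlapped, because CSF3 array 3 lay below all others, and the difference of 0.08 ± 0.12 did not pass (limma adjusted p = 0.601). Without that array it was 0.23 and passed.

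BAK1, whose protein sits in the outer membrane of healthy cells (chromosome 6, 33572552 to 33580276), had 3 of 5 probe sets higher. Probe set 11752413_a_at read 5.60, 5.54 and 5.65 on CSF3 arrays, against 5.32, 5.45 and 5.33 on Ctrl arrays, a change of 0.23 ± 0.06 (limma adjusted p = 0.015). Probe set 11732515_x_at changed by 0.19 ± 0.06 (limma adjusted p = 0.0203) and 11762913_a_at by 0.41 ± 0.09 (limma adjusted p = 0.00459). In these 3 the CSF3 arrays all lay above the Ctrl arrays. The calls of 11752413_a_at and 11732515_x_at were lost without Ctrl array 1 (adjusted p = 0.0592 and 0.0614) or Ctrl array 3 (0.0586 and 0.0789). That of 11762913_a_at was lost with cyclic loess normalization (adjusted p = 0.0626). The brightest, 11748849_a_at, averaged 5.78 ± 0.13 on CSF3 and 5.63 ± 0.07 on Ctrl arrays (SD, n = 3 each) and did not pass as deposited (limma adjusted p = 0.123), while its change of 0.41 after quantile normalization did. The remaining probe set, 11746208_a_at, lay on the other side of 0: it read 3.89, 3.91 and 4.07 on CSF3 arrays, against 4.12, 4.16 and 4.01 on Ctrl arrays. The groups overlapped and the difference of -0.14 ± 0.08 did not pass (limma adjusted p = 0.134), but without CSF3 array 3 it was -0.20 and passed (adjusted p = 0.0457).

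Among the BH3-only genes, PMAIP1 was higher by both of its probe sets. It encodes NOXA, which binds MCL1 and marks it for degradation (chromosome 18, 59899996 to 59904305). Probe set 11724509_a_at read 7.54, 7.65 and 7.64 on CSF3 arrays, against 6.92, 6.98 and 6.96 on Ctrl arrays, a rise of 0.66 ± 0.06 (limma adjusted p = 8.29e-05), or 1.58-fold. Probe set 11724510_at read 6.94, 6.87 and 6.79 on CSF3 arrays, against 6.41, 6.46 and 6.39 on Ctrl arrays, a rise of 0.45 ± 0.06 (limma adjusted p = 0.000607). Every CSF3 array exceeded every Ctrl array in both. Both rises held under every alternative, from 0.41 to 0.88, and were larger after quantile normalization (0.87 and 0.70).

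BBC3 encodes PUMA, which binds all the pro-survival proteins (chromosome 19, 47220824 to 47232860). Probe set 11727707_a_at read 7.08, 7.13 and 7.05 on CSF3 arrays, against 6.72, 6.74 and 6.80 on Ctrl arrays, and rose by 0.34 ± 0.06 (limma adjusted p = 0.00167) or 1.26-fold. Probe set 11727706_a_at read 4.77, 4.61 and 4.89 on CSF3 arrays, against 4.48, 4.50 and 4.56 on Ctrl arrays, and rose by 0.24 ± 0.08 (limma adjusted p = 0.0299). Again the groups did not overlap in either. The second call was narrow: it was lost without CSF3 array 1 (adjusted p = 0.0654), CSF3 array 3 (0.0757), Ctrl array 1 (0.0918), Ctrl array 2 (0.083) or Ctrl array 3 (0.055). The first call held under every alternative, with a highest adjusted p of 0.0103.

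BCL2L11 encodes BIM, whose splice forms differ in potency and in their binding to the cytoskeleton (chromosome 2, 111120914 to 111168445). Of its 14 probe sets 10 rose and 4 did not pass, and the changes ran from 0.06 to 0.81. The largest was that of 11762576_at, which read 5.32, 5.69 and 5.59 on CSF3 arrays, against 4.69, 4.70 and 4.78 on Ctrl arrays, a rise of 0.81 ± 0.10 (limma adjusted p = 0.000314) or 1.75-fold. Probe set 11759889_a_at read 4.56, 4.39 and 4.60 on CSF3 arrays, against 3.92, 3.84 and 3.80 on Ctrl arrays, and rose by 0.66 ± 0.08 (limma adjusted p = 0.000228). In both, as in the other 8 that rose, every CSF3 array lay above every Ctrl array. The brightest, 11751830_a_at, read 5.52, 5.45 and 5.57 on CSF3 arrays, against 5.41, 5.30 and 5.31 on Ctrl arrays, and its small rise of 0.17 ± 0.06 (limma adjusted p = 0.0413) was lost with array medians subtracted, with the replicate number as a block, without _x_at and _s_at probe sets, and without CSF3 array 1 or 3 or Ctrl array 2 or 3 (adjusted p from 0.0501 to 0.126).

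The remaining BCL2L11 probe sets were dimmer or less even. Probe set 11718078_a_at, whose target record is the transcript of the longest common form, BIM-EL, averaged 4.84 ± 0.14 on CSF3 and 4.78 ± 0.12 on Ctrl arrays (SD, n = 3 each), with overlapping groups (limma adjusted p = 0.59). Probe set 11753863_s_at read 3.96, 3.23 and 3.27 on CSF3 arrays, against 2.91, 3.00 and 2.79 on Ctrl arrays, so that CSF3 array 1 carried much of the mean. It rose by 0.59 ± 0.19 (limma adjusted p = 0.0247), but without that array the change was 0.35. This call and those of 11763069_x_at, 11735895_at and 11745162_s_at were lost after quantile normalization, where the change of 11745162_s_at was -0.064, against 0.16 as deposited. Of the gene's 14 probe sets, 7 were higher after quantile normalization.

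BID links death receptors to mitochondria once caspase-8 cuts it (chromosome 22, 17734138 to 17774665). Probe set 11745421_a_at read 4.35, 4.23 and 4.24 on CSF3 arrays, against 5.28, 5.18 and 5.20 on Ctrl arrays, a fall of 0.95 ± 0.06 on the log2 scale (limma adjusted p = 2.37e-05), or 0.519-fold. The groups were far apart, and the fall was the largest of the family. Probe set 11724046_a_at read 7.37, 7.22 and 7.22 on CSF3 arrays, against 7.55, 7.72 and 7.57 on Ctrl arrays, and fell by 0.35 ± 0.07 on the log2 scale (limma adjusted p = 0.0049), which quantile normalization took below the threshold for a call (-0.14, adjusted p = 0.134). The other 2 probe sets, 11732218_x_at and 11732217_a_at, had differences of -0.16 and -0.10 that did not pass and were 0.05 and 0.13 after quantile normalization.

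BAD encodes a BH3-only protein that growth factor kinases keep phosphorylated and inactive (chromosome 11, 64269828 to 64284704). Probe set 11750088_x_at read 5.98, 6.02 and 6.03 on CSF3 arrays, against 6.28, 6.22 and 6.26 on Ctrl arrays, and fell by 0.24 ± 0.06 on the log2 scale (limma adjusted p = 0.00641), but after quantile normalization its change was 0.025 (adjusted p = 0.738). Probe set 11727106_a_at read 5.87, 5.91 and 5.82 on CSF3 arrays, against 5.80, 5.68 and 5.64 on Ctrl arrays, and its difference of 0.16 ± 0.07 did not pass as deposited (limma adjusted p = 0.0643) but was 0.42 and passed after quantile normalization. The 2 probe sets thus lay on opposite sides of 0 as deposited, and the direction of the gene was not settled by these arrays.

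Whether probe sets of 1 gene changed unequally was tested on the difference, within each array, between each other probe set and the brightest of the gene. Of 36 such differences in the family, 13 passed, 7 higher and 6 lower on CSF3 arrays, against 41% of all 26856 differences on the array. They lay in BCL2, BCL2L1, MCL1, BAX, BCL2L11, BID and BAD, while 0 of the 6 differences in BAK1, BBC3 and PMAIP1 passed limma's test as deposited, 1 of them (PMAIP1, -0.21 ± 0.09) having an unadjusted p under 0.05. After quantile normalization 1 of the 6 passed, BAK1 11746208_a_at, whose difference from 11748849_a_at was -0.29 as deposited (limma adjusted p = 0.122) and then -0.49 (adjusted p = 0.0221). Of the 13, 11 also passed with the same sign after quantile normalization. The isoform names below are those of the target record given by the platform annotation. Probe sequences were not used, so whether a probe set measures 1 isoform alone was not tested. The gaps between 3' and 5' probe sets of GAPDH and ACTB also differed between the groups. Whether such a shift has a part in the within-gene differences was not tested.

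For BCL2L1, the difference of 11739957_a_at from the BCL-XS record probe set 11739958_x_at was -3.61, -3.55 and -3.42 on CSF3 arrays, against -2.80, -2.63 and -2.77 on Ctrl arrays. It was lower on all CSF3 arrays, with a change of -0.79 ± 0.09 (limma adjusted p = 0.000571), and quantile normalization left it at -0.78. The other BCL2L1 difference had the opposite sign: 11759514_at rose by 0.27 ± 0.07 relative to 11739958_x_at (limma adjusted p = 0.022), and by 0.36 after quantile normalization. That call was lost with the replicate number as a block (adjusted p = 0.0551) and without CSF3 array 3 (0.0504), Ctrl array 1 (0.0856), Ctrl array 2 (0.0545) or Ctrl array 3 (0.0746). The end of the BCL-XS transcript is shared with BCL-XL, so 11739958_x_at is not known to follow 1 of them alone. For BID, 11745421_a_at against 11732218_x_at changed by -0.79 ± 0.08 (limma adjusted p = 0.000453). For BAX, 11742537_a_at against the BAX beta record changed by -0.55 ± 0.13 (limma adjusted p = 0.012). These 3 genes thus each had a probe set that fell relative to a brighter one.

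For MCL1, 11715485_a_at rose by 0.63 ± 0.08 relative to 11715483_s_at (limma adjusted p = 0.00079), while 11715484_a_at and 11715487_a_at changed by -0.46 and -0.45. The fourth MCL1 difference, of 11715482_a_at, was -0.23 (limma adjusted p = 0.0404) and was lost when any 1 array was left out and after quantile normalization (adjusted p = 0.0594). For BCL2L11, 11762576_at rose by 0.63 ± 0.12 relative to 11751830_a_at (limma adjusted p = 0.00594) and 11759889_a_at by 0.49 ± 0.07 (limma adjusted p = 0.00183), while the BIM-EL record probe set had a difference of -0.12 that did not pass (limma adjusted p = 0.525). The rise of 11735894_a_at relative to 11751830_a_at, 0.42, was 0.04 after quantile normalization. For BAD, 11727106_a_at rose by 0.40 ± 0.08 relative to 11750088_x_at (limma adjusted p = 0.00558), and by the same 0.40 after quantile normalization, although neither direction of BAD itself held.

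For BCL2, 11721374_a_at rose by 0.44 ± 0.08 relative to the beta record probe set 11738350_a_at (limma adjusted p = 0.00423). The alpha record probe sets 11721376_at and 11721377_x_at had differences of -0.12 and -0.20 from it that did not pass as deposited (limma adjusted p = 0.316 and 0.0794) and were -0.31 and -0.39, past the test, after quantile normalization. The comparison of alpha and beta records thus turned on the normalization, and both alpha record probe sets rest on tied values.

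**Figure D4:**
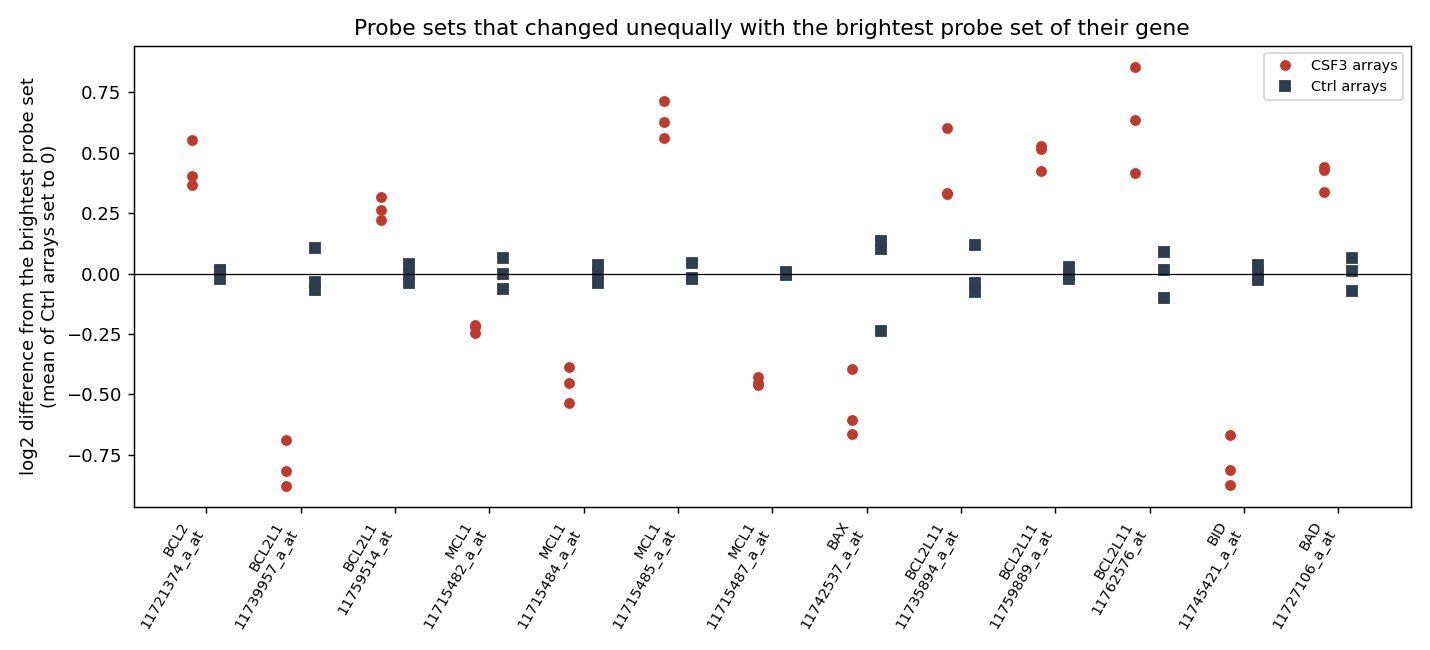
Within-array difference of a probe set from the brightest of its gene (vertical axis, log2, with the mean of the Ctrl arrays set to 0) for the 13 differences that passed, CSF3 arrays as circles and Ctrl arrays as squares. In each of the 13 the CSF3 and Ctrl points do not overlap; 7 have the CSF3 points above and 6 below, with BCL2L1 11739957_a_at and BID 11745421_a_at lowest.

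With 1 probe set per gene, the brightest, 3 of the 10 members were higher (BBC3, PMAIP1, BCL2L11), 4 lower (MCL1, BCL2L1, BID, BAD) and 3 not called, against 45.4% of all 18132 genes higher and 27.1% lower. After quantile normalization 4 were higher and 1 lower, MCL1, against 39.8% and 19.7% of all genes. The calls of BCL2L1 (adjusted p = 0.0355) and BID (adjusted p = 0.0469) in this fit were close to the threshold. The same probe sets did not pass in the fit over all probe sets (limma adjusted p = 0.0542 for BCL2L1 and 0.0612 for BID). After quantile normalization the changes of BCL2L1, BID and BAD were 0.04, 0.05 and 0.025, and none of them was called.

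Related genes from 7 lists were read from the same fit. Of all 18132 genes, 45.4% were higher and 27.1% lower, or 39.8% and 19.7% after quantile normalization. No list was tested as a set, and the counts are not read as results about the lists. Of 15 other BCL2 family genes, 8 were higher, 3 lower and 4 not called (9, 2 and 4 after quantile normalization). HRK, a BH3-only gene known from neurons, averaged 5.11 ± 0.02 on CSF3 and 4.48 ± 0.04 on Ctrl arrays (SD, n = 3 each), a rise of 0.63. BMF, a BH3-only gene tied to loss of attachment, rose by 0.58, and BCL2A1, a pro-survival gene known as a target of NF-κB, rose by 0.48 with levels of 9.15 ± 0.05 on CSF3 and 8.67 ± 0.03 on Ctrl arrays (SD, n = 3 each). BNIP3L, which acts in the removal of mitochondria, fell, with a change of -0.41. Pro-survival and BH3-only genes were thus both among those that rose.

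Downstream of the mitochondria, 2 of 5 measured genes of the apoptosome and caspase list were higher, APAF1 (0.62) and the cytochrome c gene CYCS (0.21), and 2 lower, the caspase genes CASP6 (-0.45) and CASP2 (-0.29), or 3 higher and 1 lower after quantile normalization. Among 8 measured genes of inhibitors of apoptosis (IAP) and their antagonists, 4 were higher and 2 lower (5 and 2 after quantile normalization). XIAP, the direct caspase inhibitor, changed by -0.58 at its brightest probe set but by -0.60 to 0.40 over its 5, BIRC6 by -0.67, BIRC7 by 0.60 and BIRC5, which encodes survivin, by 0.38.

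In the death receptor arm upstream of BID, 3 of 9 genes were higher and 4 lower, or 2 and 1 after quantile normalization. The receptor genes FAS and TNFRSF10A fell, with changes of -0.59 and -0.46, as did the adaptor gene FADD at its brightest probe set (-0.30), while a further FADD probe set rose by 0.43. The ligand gene TNFSF10, which encodes TRAIL, rose by 0.42 at a level of 1.91 ± 0.02 on CSF3 and 1.49 ± 0.10 on Ctrl arrays (SD, n = 3 each), near the bottom of the scale. The FAS call held after quantile normalization (-0.38), and those of TNFRSF10A and FADD did not.

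All 8 outer membrane partners and fission or cristae genes fell as deposited, and 3 of the 8 did after quantile normalization, where 5 were not called. MTCH2, the membrane receptor for truncated BID, averaged 6.91 ± 0.06 on CSF3 and 7.42 ± 0.01 on Ctrl arrays (SD, n = 3 each), a change of -0.52. OMA1 and OPA1, an inner membrane protease gene and the cristae gene whose product it cleaves, changed by -0.75 and -0.57. These 3 were the ones that kept their call, and the fission gene DNM1L (-0.29) was not among them. Of all genes, 27.1% were lower as deposited and 19.7% after quantile normalization. Over all genes the median change was 0.16 as deposited and 0.13 after quantile normalization, and that of this list was -0.27 and -0.10. The 8 genes read above the median level, where probe sets changed by a median of -0.16 as deposited and 0.03 after quantile normalization. The list was not set beside genes of like level.

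Of 10 genes acting in the turnover of MCL1 and BH3-only proteins, 2 were higher and 6 lower (3 and 5 after quantile normalization). CUL5, a cullin of ubiquitin ligases, averaged 6.18 ± 0.05 on CSF3 and 7.39 ± 0.01 on Ctrl arrays (SD, n = 3 each), a change of -1.20 (limma adjusted p = 9.01e-06). GSK3B, a kinase that primes MCL1 for degradation, changed by -1.06, BTRC by -0.995 and HUWE1, a ubiquitin ligase of MCL1, by -0.67. For GSK3B, BTRC and HUWE1 another probe set rose, by 0.31, 0.28 and 0.40, so the direction depends on the probe set. Of 13 measured transcription factor genes, 2 were higher and 4 lower, or 6 and 2 after quantile normalization, with FOXO3 at 0.52, ATF4 at 0.25, MYC at -0.35 and STAT5B at -0.44. STAT5B too had 2 probe sets that rose beside the brightest, which fell.

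**Figure D5:**
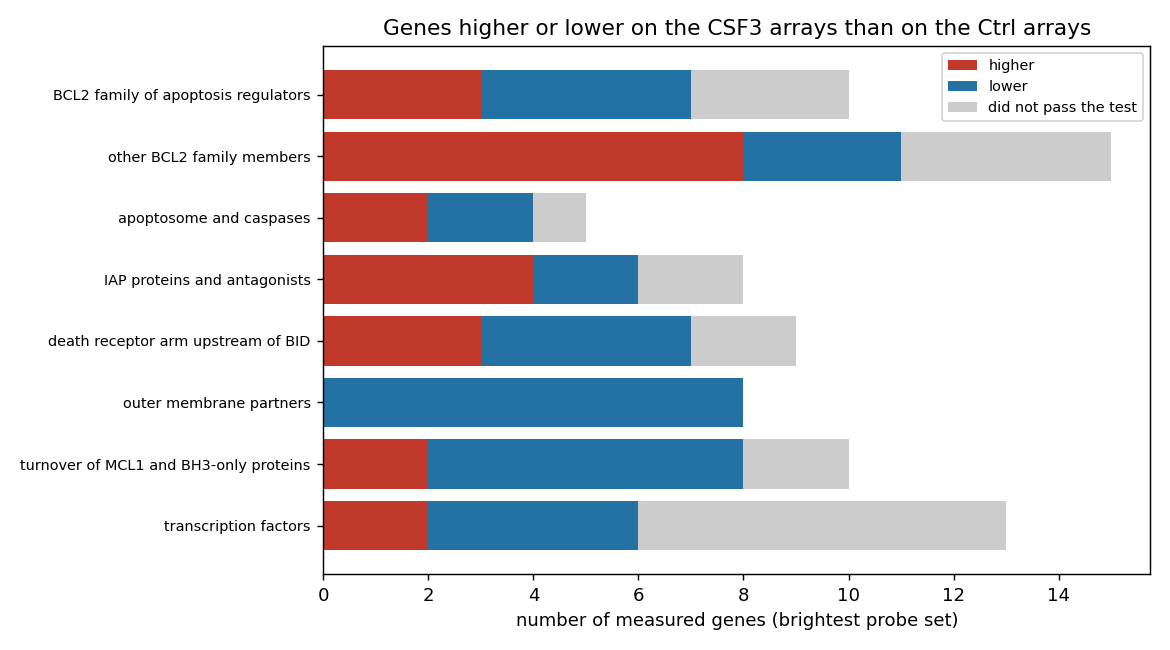
Number of measured genes (horizontal axis) that were higher, lower or did not pass the test on CSF3 relative to Ctrl arrays, by brightest probe set, for the 10 members and the 7 lists of related genes. The outer membrane partners are lower in 8 of 8, and the other lists are divided. Of all genes, 45.4% were higher and 27.1% lower.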

How the data were processed

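The 6 arrays are 3 labelled CSF3 and 3 labelled Ctrl. The authors deposited signals of 49395 probe sets, on a log2 scale as far as the values show (0.81 to 12.7). Log base, background correction, summarisation and normalization were not given in the sources used here, and scanner files and detection calls were not used. Another base would change every fold and no test. The precision is limited by the number of arrays.

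Gene names are those of the platform annotation (44988 with 1 gene, 1832 with several, 2473 with none, 102 controls), and only those with 1 gene were tested. CSF3 minus Ctrl was fitted with limma 3.58.1 (lmFit, eBayes) in R 4.3.3, with Benjamini-Hochberg adjustment and a threshold of 0.05: over all single-gene probe sets (the members' values), over 18132 genes by the probe set with the highest mean (the lists), and over 26856 within-array differences of other probe sets from it. Changes are log2 differences ± standard error. The fits were tested on simulated data, and the outcome is not reported here. Probe sets ending in _a_at match several transcripts of a gene, and _s_at or _x_at can match others. Promoter sequences and coordinates are RefSeq's (GRCh38.p14).

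The members and lists were chosen with earlier results of these data known. Named genes are all members, CSF3, and from each list the 4 with the smallest p, plus genes that small counts need. XIAP's, FADD's, GSK3B's, BTRC's, HUWE1's and STAT5B's other probe sets were mentioned after their values were seen. Deviations of same-numbered arrays from their group means correlated weakly (r 0.026, 0.015 and 0.026). This does not settle whether the numbers pair the arrays, and the main fits used no pairing. Alternatives were quantile and cyclic loess normalization, array medians, leaving out the 30% dimmest or the _x_at and _s_at probe sets, trend and robust eBayes, array weights, the mean of a gene's probe sets, a replicate block and leaving out each array.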

Additional observations from a re-analysis of the deposited data

How the results depend on the processing

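Of the family's 28 called probe sets, 10 of 19 higher and 7 of 9 lower ones kept their call under all alternatives that kept the probe set. The sign turned for BCL2L11 11745162_s_at, -0.064 after quantile and -0.057 after cyclic loess normalization, and for BAD 11750088_x_at, 0.025 after quantile normalization. The family's genes called lower by brightest probe set numbered 4 as deposited, 1 after quantile and 1 after cyclic loess normalization; those called higher numbered 3, and 5 when a gene's probe sets were averaged. Leaving out the 30% dimmest, which tests fewer features, gave 10326 probe sets and 4767 genes higher, against 16513 and 8227. Leaving out _x_at and _s_at probe sets, likewise fewer, gave 8534 probe sets lower against 12945, and 6569 within-gene differences against 11023, 7 of them in the family against 13. In that setting the brightest probe set was picked again. The differences of BCL2L1, MCL1 and BID then had another reference, and BAX and BAD had none left. The cause of these and the other moves was not tested. With the replicate number as a block, 19 of the family's probe sets were higher and 9 lower, as without it, and its genes called lower numbered 2. The labels give these arrays no more than a shared number. Leaving out 1 array gave 13 (without Ctrl array 3) to 19 probe sets higher and 9 to 11 lower, 2 to 4 genes higher, 2 to 3 genes lower (2 without any array but CSF3 array 2), and 10 to 14 within-gene differences. Dim probe sets, BCL2's among them, are limited by signal near the bottom of the scale.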
